A study of Mus musculus with 847 samples.

Results

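The S100 genes encode small calcium-binding proteins, and 8 of them were followed here through the brain of ageing mice: S100b, S100a1, S100a4, S100a6, S100a10, S100a11, S100a13 and S100a16. They are 8 of the 21076 genes counted in every library. They were chosen by earlier results of these data, namely the slopes with age that gave the change of S100b in corpus callosum against that in cortex, so that change is described below without a test. The material was bulk RNA sequencing of 15 dissected brain regions from 59 C57BL/6JN mice, with at most 1 library for each region and mouse and no treatment named in the labels. The youngest mice were 3 months old and the oldest 28 months. At each of 3, 12, 15 and 18 months the study had 5 mice of either sex, at 21 months it had 5 females with 6 males, and the 5 mice of 26 months and 3 mice of 28 months were male. Each region had between 51 and 59 libraries, and each group of region, sex and age between 2 and 6.

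S100 proteins carry paired EF-hand loops that bind calcium, work mostly as dimers and pass the calcium signal on by binding other proteins. S100b is made mainly by astrocytes and by cells of the oligodendrocyte lineage. When secreted, it acts on the receptor for advanced glycation end products (Ager), and it is widely used as a glial marker and as a blood marker of brain injury. S100a10 and S100a11 bind annexins, S100a6 binds the calcyclin-binding protein Cacybp, S100a4 binds non-muscle myosin, S100a1 acts on calcium pumps and release channels, and S100a13 takes part in the unconventional export of Fgf1.

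The median library held 6716032 reads. The shallowest held 481444 and the deepest 26756735, and 10 fell short of 1000000. S100a4 stood apart in depth: it was at 0 in 120 libraries and had a median of 4 reads, whereas every other member had reads in all libraries. Levels are given as CPM, reads of a gene per 1000000 reads of its library, and changes with age as the slope of a fit on age beside sex, in log2 per month. The markers fixed for each tissue showed mixed dissections. Libraries labelled choroid plexus had a median of 5816 CPM over 4 epithelial markers (Ttr, Kl, Folr1, Clic6), but also 12785 CPM over 6 oligodendrocyte markers and 5166 CPM over 5 neuronal markers. Libraries labelled corpus callosum ranged from 4.10 to 17891 CPM over the epithelial markers, and had a median of 20982 CPM over the oligodendrocyte markers, against 3999 CPM in motor cortex. In such bulk samples a larger number of cells of a type and more RNA per cell cannot be told apart. Mice numbered 1 to 15 held all mice of 12 and 26 months, and mice 57 to 59 those of 28 months, so whatever goes with the numbers cannot be told apart from these ages. The entorhinal library of mouse 52 (female, 21 months), the deepest of the series, had a profile nearest to that of medulla. Leaving it and the 10 shallow libraries out ended 1 of the calls below, that of S100a16 in thalamus.

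The 7 members with an "a" in their name lie in a cluster on chromosome 3, and S100b lies alone on chromosome 10 (GRCm38, GENCODE M21). S100b spans 76253853 to 76261159 on the plus strand, where its span overlaps that of Dip2a but shares none of its exons. S100a1 (90511034 to 90514392, minus strand) and S100a13 (90514435 to 90524581, plus strand) lie head to head, and S100a16 (90537254 to 90543151), S100a4 (90603771 to 90606045) and S100a6 (90612882 to 90624181) follow on the plus strand. S100a11 (93520488 to 93526287) and S100a10 (93555080 to 93564643) lie farther along, also on the plus strand. In the annotation, 302 of the 584 exonic bases of S100a4 are shared with the same-strand model Gm42674, which has no values here, so S100a4 reads could belong to either. These GENCODE models of S100a1 and S100a13 do not overlap, while their RefSeq gene spans, which cover every model of a gene, overlap by 98 bases. The libraries were not stranded, so reads of the pair in such a stretch could not be told apart.

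RefSeq promoter windows (GRCm38.p6) were matched for 7 of the 8 members. S100a10 was not matched. The 250 bases before the start are shown, 5′ to 3′ on the gene's own strand, for S100a1 and S100a13, which shared their pattern of levels, with the 104 bases that both windows hold in capitals. S100b and S100a11 are shown as the member of the callosum comparison and the member with the most motif matches, with those matches in capitals.
S100a1, minus strand, chr3:90514331-90514580: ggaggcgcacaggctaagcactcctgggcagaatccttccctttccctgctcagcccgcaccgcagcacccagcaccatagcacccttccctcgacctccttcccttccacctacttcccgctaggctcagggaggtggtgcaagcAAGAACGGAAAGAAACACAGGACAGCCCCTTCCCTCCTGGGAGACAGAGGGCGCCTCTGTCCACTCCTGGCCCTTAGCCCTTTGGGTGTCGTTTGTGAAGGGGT
S100a13, plus strand, chr3:90514185-90514434: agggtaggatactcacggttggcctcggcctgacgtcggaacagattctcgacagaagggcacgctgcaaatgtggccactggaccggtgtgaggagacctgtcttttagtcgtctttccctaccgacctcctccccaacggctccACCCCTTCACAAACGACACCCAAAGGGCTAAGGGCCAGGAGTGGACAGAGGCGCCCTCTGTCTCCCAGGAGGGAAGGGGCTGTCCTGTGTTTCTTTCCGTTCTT
S100b, plus strand, chr10:76253586-76253835: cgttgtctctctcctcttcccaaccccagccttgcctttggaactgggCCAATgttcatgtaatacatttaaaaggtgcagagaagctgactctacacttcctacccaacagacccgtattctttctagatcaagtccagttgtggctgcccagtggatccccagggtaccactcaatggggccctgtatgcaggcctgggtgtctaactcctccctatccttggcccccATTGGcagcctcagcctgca
S100a11, plus strand, chr3:93520246-93520495: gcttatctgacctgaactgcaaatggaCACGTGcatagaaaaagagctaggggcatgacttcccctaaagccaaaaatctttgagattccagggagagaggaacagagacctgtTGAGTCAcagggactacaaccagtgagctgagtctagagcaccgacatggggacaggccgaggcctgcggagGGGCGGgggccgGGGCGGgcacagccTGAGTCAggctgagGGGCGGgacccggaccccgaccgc

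The capitals of S100a1 and S100a13 are reverse complements of each other, since the genes start from the same stretch in opposite directions. The windows were searched on both strands for 5 motifs, whose matches do not overlap one another in the sequences shown. The letters TATAAA stood for a TATA box and the letters CCAAT for a CCAAT box. A GC box was searched as the letters GGGCGG, an AP-1 site by the run TGAGTCA, and an E-box by the run CACGTG, which reads the same on both strands. S100b held CCAAT boxes that begin 202 and 20 bases before the start, and S100a11 held GC boxes at 64, 52 and 24 bases, AP-1 sites at 136 and 38 bases and an E-box at 223 bases. Neither S100a1 nor S100a13 held a match. Of the windows not shown, S100a4 held a TATA box at 31 bases, S100a6 a CCAAT box at 228 bases, and 1 of the 2 S100a16 windows a GC box at 30 bases. Among 32851 promoter windows of the same length, 12.4% held a TATA box, 33.8% a CCAAT box, 32.7% a GC box, 4.46% an AP-1 site and 6.02% an E-box. A match describes letters and is no evidence of binding.

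Per kilobase of exon, S100b and S100a1 were the most abundant members and S100a4 the least. Averaged over all libraries, the level per kilobase was 139 CPM for S100b, 107 for S100a1, 60.4 for S100a16, 24.2 for S100a13, 23.6 for S100a10, 18.3 for S100a11, 14.5 for S100a6 and 1.06 for S100a4. S100b was highest in the hindbrain. Its mean was 540 ± 83.8 CPM in medulla (SD, n = 58), 526.3 ± 60.3 in cerebellum (n = 58) and 437 ± 56.1 in pons (n = 51). Then came choroid plexus with 186 ± 63.8 CPM (n = 57), thalamus with 159 ± 22.5 (n = 59) and corpus callosum with 159 ± 26.9 (n = 57). Hypothalamus (144), caudate putamen (144), olfactory bulb (143), subventricular zone (126), entorhinal cortex (118), motor cortex (112), anterior hippocampus (110) and posterior hippocampus (105.4) followed, and visual cortex was lowest with 81.6 ± 10.3 CPM (n = 56). Only the steps from cerebellum to pons, from pons to choroid plexus and from posterior hippocampus to visual cortex were larger than the greater SD of the 2 neighbours.

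Within entorhinal cortex, S100b spread widely between libraries, from 39.1 to 434 CPM. The 5 highest libraries lay between 253 and 434 CPM and the other 46 between 39.1 and 217. The sum of the oligodendrocyte markers was 9128 to 22533 CPM in those 5 libraries and 205 to 5940 in the others, so the libraries high in S100b were also the ones rich in myelin genes. Its part in the spread was not tested.

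S100a1, S100a13 and S100a16 had a common regional pattern, highest in medulla and pons and lowest in the motor and visual cortex. S100a1 averaged 115 ± 20.5 CPM in medulla (SD, n = 58), 106 ± 18.7 in pons (n = 51) and 52.1 ± 4.79 in motor cortex (n = 59). S100a16, a member whose targets are less well known, averaged 145 ± 20.6 CPM in pons, 143 ± 24.7 in medulla and 58.5 ± 5.92 in motor cortex. S100a13 had a narrower range, from 23.9 ± 4.26 CPM in medulla to 11.7 ± 1.87 in visual cortex (n = 56). Over the means of every region and age, Pearson's r of log2 CPM was 0.90 between S100a1 and S100a13, 0.91 between S100a1 and S100a16 and 0.93 between S100a13 and S100a16 (1 mean for each of 15 regions and 7 ages). S100b correlated with these 3 at 0.71 to 0.73. These points share libraries and their composition, and the values are a description. Reads of S100a1 and S100a13 in the overlap of their RefSeq spans could not be told apart. The part of such reads in the r between these 2 genes was not tested.

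The other members had other orders. S100a10 was highest in olfactory bulb with 63.5 ± 7.62 CPM (n = 58), then medulla with 58.8 ± 13.8 (n = 58) and entorhinal cortex with 47.0 ± 14.4 (n = 51), and lowest in thalamus with 10.6 ± 2.99 (n = 59). S100a6 was highest in corpus callosum with 29.7 ± 10.7 CPM (n = 57) and lowest in thalamus with 9.12 ± 3.45, and no step between neighbours in its order was larger than the greater SD. S100a11 was highest in subventricular zone with 16.4 ± 4.18 CPM (n = 55) and lowest in caudate putamen with 5.31 ± 2.46 (n = 58). Single libraries stood far above the rest, with 116 CPM in the entorhinal library of mouse 39 (female, 18 months) and 50.0 CPM in the cerebellar library of mouse 40 (female, 21 months). S100a4 averaged between 0.242 CPM in cerebellum and 1.06 CPM in corpus callosum, with libraries at 0 in every region. The plot of levels by region shows the hindbrain peak of S100b.

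**Figure D1:**
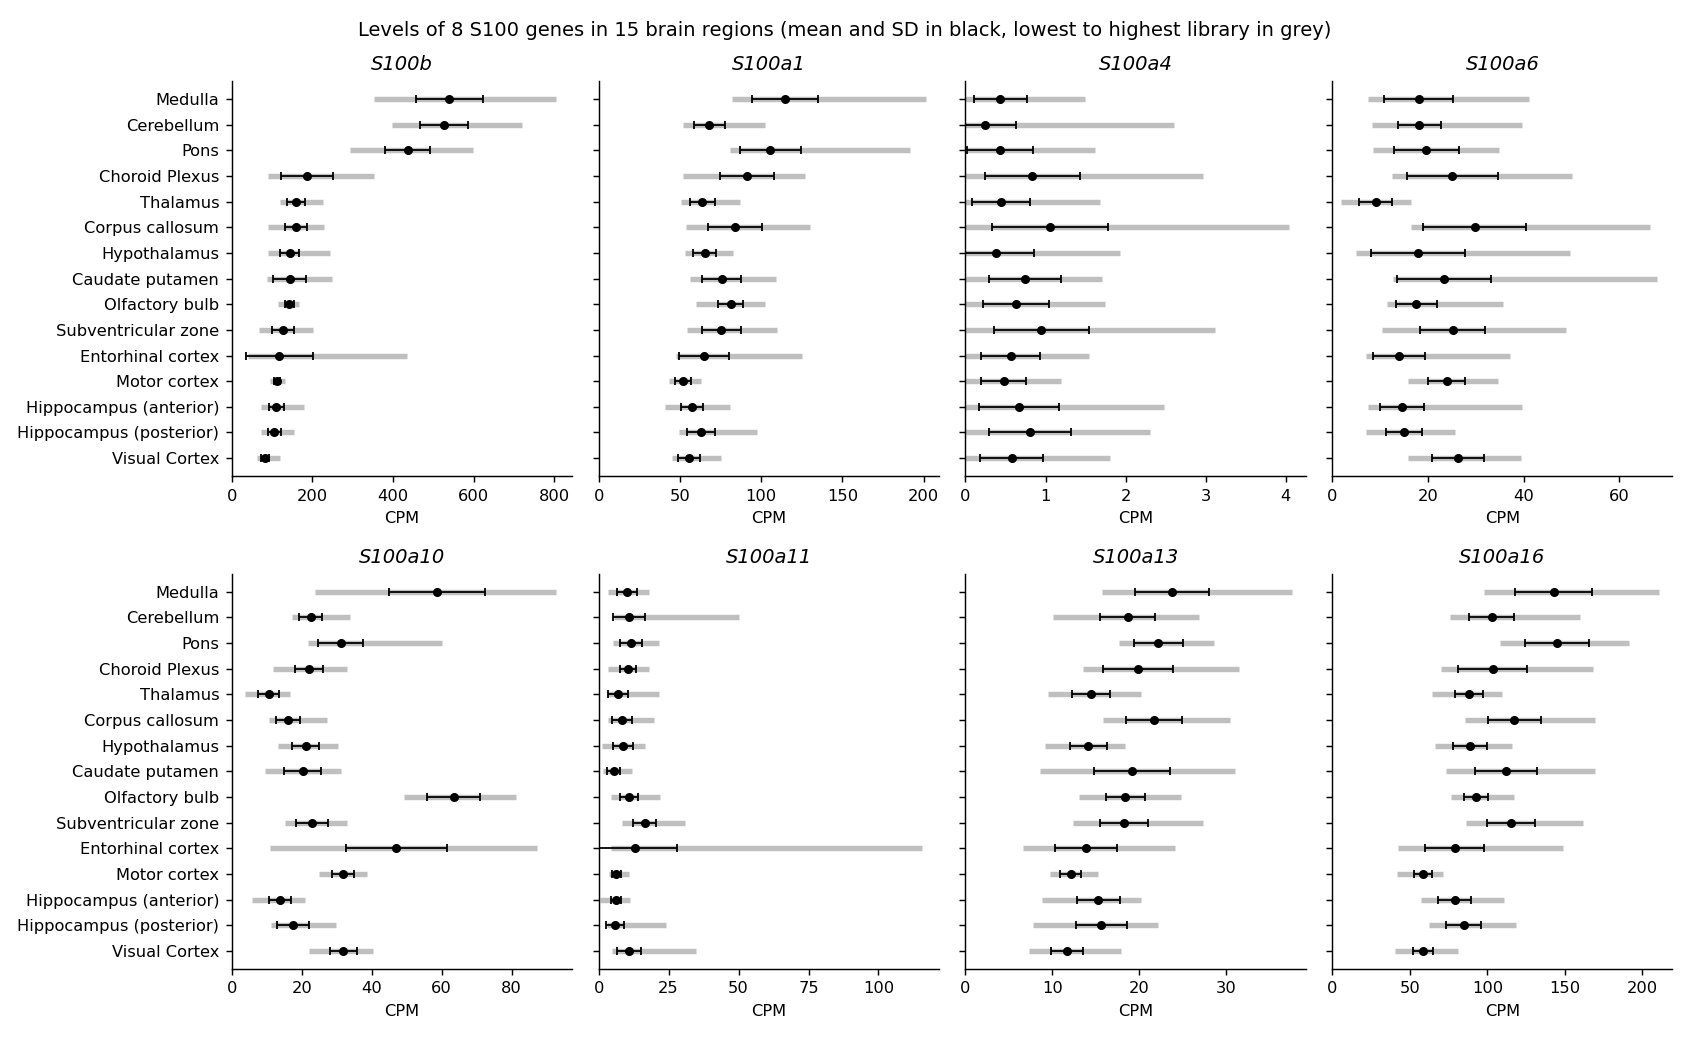
Levels of the 8 members in CPM (x axes, starting at 0, a scale for each gene) in 15 regions (y axis, ordered by S100b), with the mean and SD in black and the lowest to highest library as a grey bar. S100b reaches 540 CPM in medulla and 81.6 in visual cortex, while S100a4 stays at or under 1.06 CPM on average.

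The S100b difference that led to the choice of these genes was as follows. In corpus callosum, the white matter tract that joins the hemispheres, the lowest, median and highest values of S100b were 90.5, 125 and 151 CPM at 3 months (n = 10), and the 3 mice of 28 months had 170, 184 and 212 CPM. The groups did not overlap, and the 28-month mean was 1.53 times the 3-month mean. In between, mean levels were 146 ± 11.9 CPM at 12 months (SD, n = 9), 159 ± 17.7 at 15 months (n = 10), 168 ± 17.2 at 18 months (n = 10), 180 ± 25.3 at 21 months (n = 11) and 172 ± 11.0 at 26 months (n = 4). In motor cortex, S100b was 98.3, 113 and 126 CPM (lowest, median, highest, n = 10) at 3 months and 106, 106 and 107 CPM in the 3 mice of 28 months, inside the range of the young mice. The slope was 0.028 log2 per month (SE 0.0025) in corpus callosum and -0.0010 (SE 0.0019) in motor cortex, each region fitted alone. In a joint fit of both regions the difference was 0.027 (SE 0.0031).

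Dip2a, the neighbour whose span overlaps S100b, had a slope of 0.015 (SE 0.0040) in corpus callosum and 0.0047 (SE 0.0026) in motor cortex. Glial markers moved beside S100b in the tract. Of 7 astrocyte markers, 5 rose with age in corpus callosum, and their sum ran from 2070 to 2396 CPM at 3 months and from 3152 to 3778 CPM at 28 months. In motor cortex 1 rose and 2 fell, and the sums were 2149 to 2318 and 2061 to 2218 CPM. Of 6 oligodendrocyte markers, 2 rose in corpus callosum and 0 in motor cortex, and the callosal sum was 16873 to 23228 CPM at 3 months and 21645 to 29009 at 28 months. Of 4 microglial markers, 3 rose in corpus callosum and 1 in motor cortex. Their part in the S100b difference was not tested.

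The other members, in the same contrast and likewise without a test, had callosum minus motor cortex slopes of 0.062 (SE 0.020) for S100a4, 0.047 (SE 0.0068) for S100a6, 0.018 (SE 0.0054) for S100a10, 0.013 (SE 0.0052) for S100a1, 0.011 (SE 0.0037) for S100a16, 0.011 (SE 0.0043) for S100a13 and -0.00045 (SE 0.011) for S100a11. In this pair of regions S100b was neither the steepest member nor the one with the largest regional difference, whereas S100a11 had nearly the same slope in both.

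**Figure D2:**
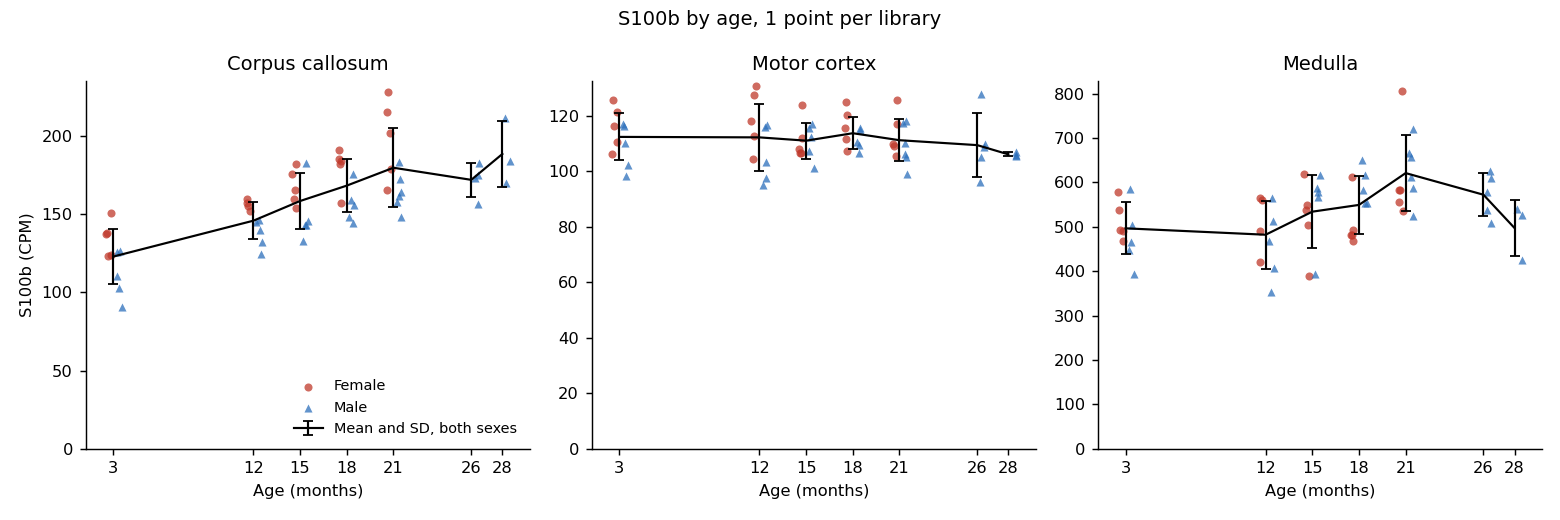
S100b in CPM (y axes, starting at 0, a scale for each panel) against age in months in corpus callosum, motor cortex and medulla, with 1 point per library (females as circles, males as triangles) and the mean and SD of each age. The callosal libraries of 28 months (170 to 212 CPM) lie above those of 3 months (90.5 to 151), while the motor cortex libraries overlap.

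Across the brain, age slopes of the members were tested in every other region that kept the gene after the filter on low counts. Of 120 pairs of member and region, 7 (all S100a4) did not pass the filter, 2 are the described S100b slopes, and 111 were tested with edgeR's quasi-likelihood test and Benjamini-Hochberg adjustment over all genes of the region. At an adjusted p under 0.05, 37 pairs (33.3%) rose, against 5.87% of all genes tested, and 1 pair (0.901%) fell, against 4.71%. The pairs share mice and are not independent, and the members were chosen with earlier results of these data known. The median slope over the 111 pairs was 0.0093 log2 per month, and 94 of them were above 0. The median over all genes lay between -0.00060 and 0.00062 in each region. Leaving aside the males of mice 1 to 15, 16 of the 38 changes kept their call under each of the 5 to 7 other settings that gave them a value, and 22 lost it under at least 1, most often in males alone (14) or in mice numbered 16 to 56 (14), which leave out 12, 26 and 28 months. Within those males, which compare 12 with 26 months only, 34 of the 38 lost their call and 3 pairs in all were called. These included a fall of S100a6 in hypothalamus and a rise of S100a6 in olfactory bulb, not called in the main fit. Within mice 16 to 56 there were 25 calls, including S100b in medulla and a fall of S100a16 in olfactory bulb, likewise not called in the main fit. Where leaving out 1 mouse ended a call, the mouse is named below with the highest adjusted p that resulted.

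The regions differed in how many members rose. In choroid plexus 7 of 8 members rose (11.1% of all genes there), in caudate putamen 5 of 7 (7.32%) and in corpus callosum 5 of 7 tested (9.06%). In pons 4 of 8 rose (3.94%), and 3 of 8 rose in medulla (6.33%), in anterior hippocampus (5.76%) and in subventricular zone (4.5%). Posterior hippocampus had 2 of 8 (4%), and cerebellum had 2 of 7 that rose (9.45%) and 1 that fell (7.52% of genes fell). There was 1 rise in motor cortex (of 6 tested, 8%), in olfactory bulb (of 7, 7.31%) and in thalamus (of 7, 2.32%). 0 of 7 rose in visual cortex (5.13%), 0 of 8 in hypothalamus (3.88%) and 0 of 7 in entorhinal cortex, where only 0.0758% of all genes rose. Which regions differ from one another was tested only for medulla and visual cortex, below.

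**Figure D3:**
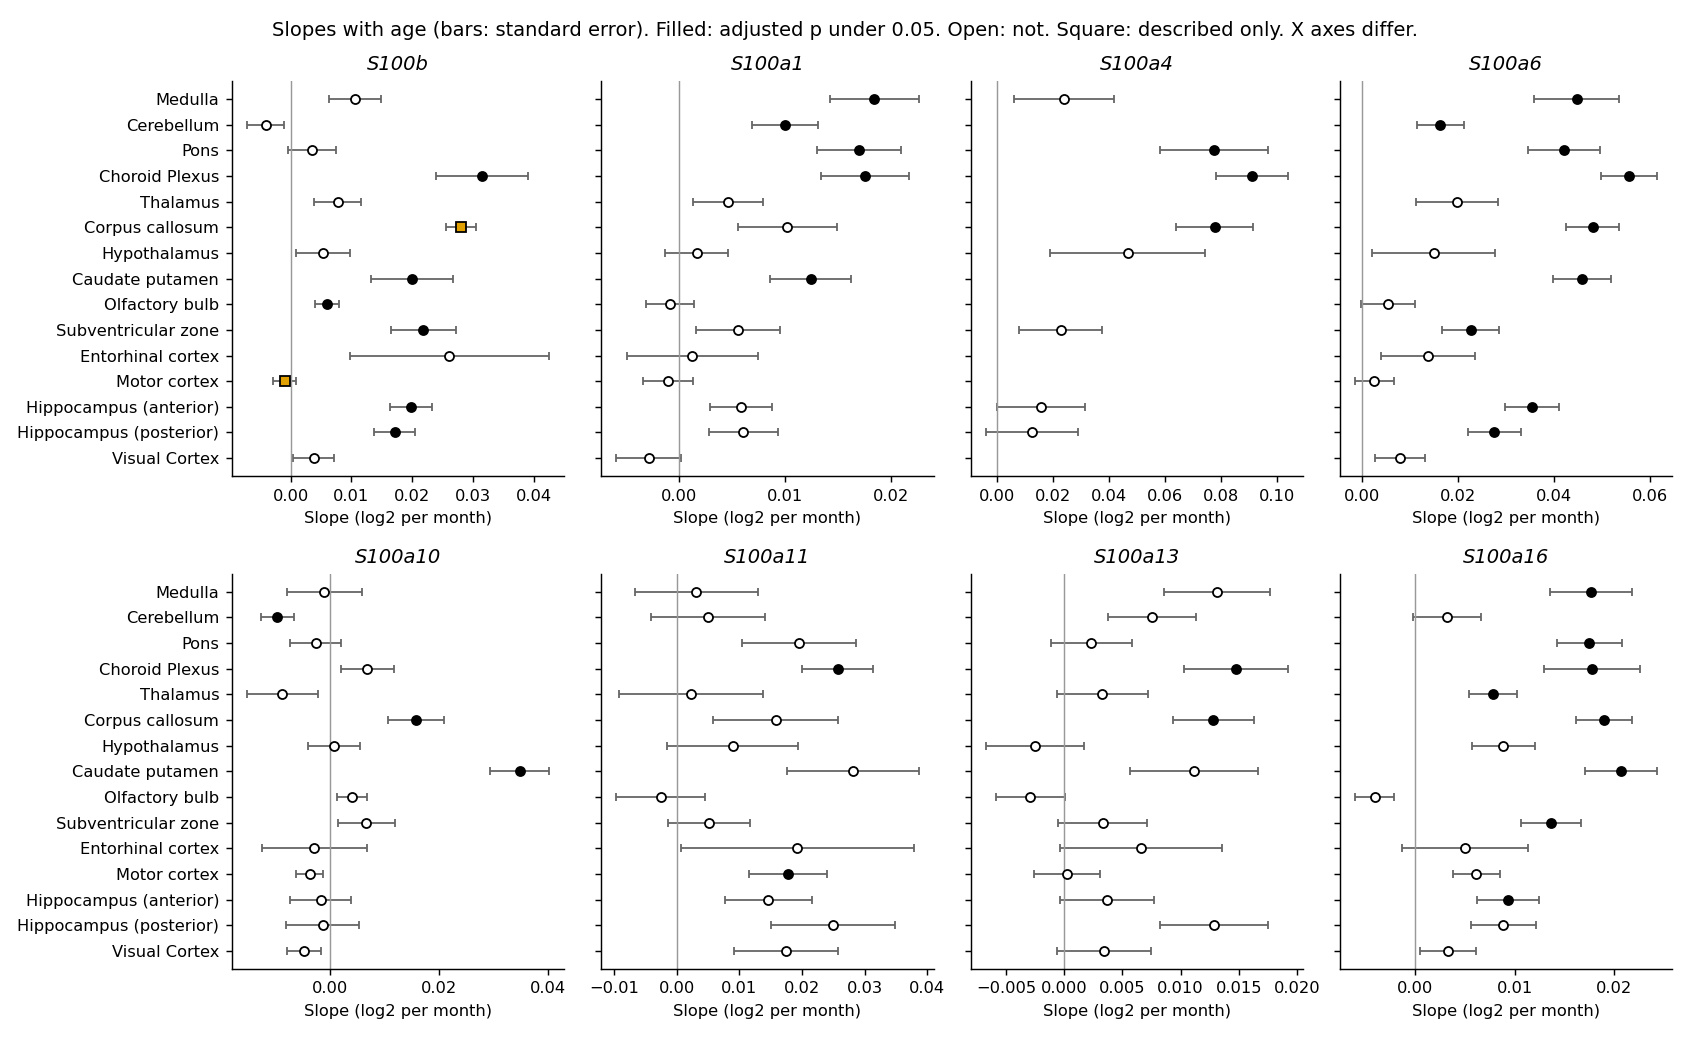
Slopes with age in log2 per month (x axes, a scale for each gene) with their standard error in each region (y axis, in the order of the S100b level), filled where the adjusted p was under 0.05, open where it was not, and as squares for the described S100b slopes. S100a6 and S100a4 have the steepest slopes, up to 0.056 and 0.091 in choroid plexus, and S100a10 in cerebellum is the only fall.

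S100b, the astrocyte and oligodendrocyte member, rose in 6 of the 13 regions in which it was tested. In choroid plexus the lowest, median and highest levels were 88.5, 123 and 256 CPM at 3 months (n = 10), 173, 230 and 352 CPM at 21 months (n = 11), and 155, 191 and 224 CPM in the 3 mice of 28 months, so the oldest mice overlapped the young. The slope was 0.032 (SE 0.0076, edgeR adjusted p = 0.00246), and in males alone the adjusted p was 0.12. The sum of the oligodendrocyte markers in these libraries was 4930 to 24427 CPM at 3 months and 12414 to 26190 at 21 months, and 3 of the 6 markers rose there. Of 7 astrocyte markers 2 rose in choroid plexus, and of 4 microglial markers 3 rose. The part of these markers in the S100b slope was not tested.

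In anterior hippocampus mean S100b was 93.7 ± 15.9 CPM at 3 months (SD, n = 10) and 121 ± 13.3 at 28 months (n = 3), with a slope of 0.020 (SE 0.0035, edgeR adjusted p = 6.52e-05). In posterior hippocampus the means were 91.6 ± 16.3 and 122 ± 19.6 CPM, with a slope of 0.017 (SE 0.0034, edgeR adjusted p = 0.000441). Both hippocampal rises kept their call in males alone and in mice 16 to 56. In anterior hippocampus 3 of 4 microglial, 3 of 4 choroid plexus epithelium, 2 of 4 ependymal, 2 of 6 oligodendrocyte and 1 of 7 astrocyte markers rose too. In posterior hippocampus 3 of 4 microglial, 1 of 7 astrocyte and 0 of 6 oligodendrocyte markers rose. Their part in the S100b rises was not tested. In subventricular zone the 3-month libraries ended at 133 CPM and the 28-month libraries began at 136, with a slope of 0.022 (SE 0.0054, edgeR adjusted p = 0.00588), and in mice 16 to 56 the adjusted p was 0.0763. There 4 of 4 microglial, 2 of 7 astrocyte and 0 of 6 oligodendrocyte markers rose, and their part was not tested. In caudate putamen S100b was 86.3, 114 and 175 CPM (lowest, median, highest, n = 9) at 3 months and 171, 196 and 209 CPM in the 3 mice of 28 months, with a slope of 0.020 (SE 0.0067, edgeR adjusted p = 0.0362).

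The caudate call of S100b was close to the threshold. With 1 mouse left out, the slope stayed between 0.018 and 0.023. The call ended without any 1 of mice 5, 11, 21, 29, 37, 41, 53, 57 and 59 (adjusted p up to 0.095), in males alone (0.0925) and in mice 16 to 56 (0.366). In the same libraries the oligodendrocyte marker sum was 5268 to 20060 CPM at 3 months and 15384 to 21333 at 28 months, with 0 of the 6 markers past the threshold. Of 4 microglial markers 3 rose in caudate putamen, and of 7 astrocyte markers 1 rose. The part of these markers was not tested. The olfactory bulb slope was the smallest of those that rose, 0.0059 (SE 0.0020, edgeR adjusted p = 0.0315), and its call ended without any 1 of mice 8, 17, 25, 33 and 49 (adjusted p up to 0.0807) and in mice 16 to 56 (0.195).

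Where S100b was most abundant, its slope did not pass the threshold. In medulla it was 394, 492 and 585 CPM (lowest, median, highest, n = 10) at 3 months, 525, 587 and 806 CPM at 21 months (n = 11) and 426, 525.7 and 541 CPM in the 3 mice of 28 months, with a slope of 0.011 (SE 0.0043, edgeR adjusted p = 0.101). In mice 16 to 56 the slope was 0.016 and the adjusted p 0.0462. In pons the slope was 0.0035 (SE 0.0040, edgeR adjusted p = 0.76), and in cerebellum -0.0041 (SE 0.0031, adjusted p = 0.399). In entorhinal cortex, with the wide spread given above, the slope of 0.026 had an SE of 0.016 (edgeR adjusted p = 0.667). Visual cortex had a slope of 0.0038 (SE 0.0034, edgeR adjusted p = 0.532).

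S100a6, known as calcyclin and expressed in subsets of astrocytes and in growing cells, rose in 9 of 15 regions, more than any other member, with slopes from 0.016 in cerebellum to 0.056 in choroid plexus. In corpus callosum it was 17.6, 22.7 and 25.4 CPM (lowest, median, highest, n = 10) at 3 months, 34.8 to 52.1 CPM at 26 months (n = 4), and 46.7, 61.5 and 66.5 CPM in the 3 mice of 28 months. The 28-month and 3-month libraries did not overlap, and the mean was 2.66 times that of 3 months, with a slope of 0.048 (SE 0.0055, edgeR adjusted p = 8.06e-10). In caudate putamen it was 14.0, 15.7 and 21.2 CPM (n = 9) at 3 months and 45.1, 47.1 and 67.8 CPM in the 3 mice of 28 months, a ratio of means of 3.19 and a slope of 0.046 (SE 0.0061, edgeR adjusted p = 8.38e-08). The later ages stood highest: the 21-month mean was 23.3 ± 5.59 CPM (SD, n = 11) and the 26-month mean 34.9 ± 10.4 (n = 5).

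In choroid plexus S100a6 was 12.4, 16.1 and 20.2 CPM (lowest, median, highest, n = 10) at 3 months and 29.2, 38.2 and 45.6 CPM in the 3 mice of 28 months, without overlap. Its slope there was 0.056 (SE 0.0058, edgeR adjusted p = 8.7e-11). Medulla (0.045), pons (0.042), anterior hippocampus (0.035), posterior hippocampus (0.028) and subventricular zone (0.023) followed. The calls in corpus callosum, caudate putamen, choroid plexus, both hippocampal regions, medulla and pons held under every setting that gave a value, the 12- and 26-month males apart. That in subventricular zone was lost in mice 16 to 56 (adjusted p = 0.318), and that in cerebellum with depth as a covariate (0.0657), in males alone (0.105) and in mice 16 to 56 (0.142). Beside these rises, 3 of 4 microglial markers rose in each of corpus callosum, caudate putamen, choroid plexus, medulla, cerebellum and both hippocampal regions, 4 in subventricular zone and 2 in pons. Their part in the S100a6 slopes was not tested.

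In motor cortex, by contrast, the means stayed between 21.4 ± 2.67 CPM at 15 months (n = 10) and 25.2 ± 2.90 at 21 months (n = 11), with a slope of 0.0025 (SE 0.0040, edgeR adjusted p = 0.732). The hypothalamus slope of 0.015 (SE 0.013, edgeR adjusted p = 0.55) was not called, and in the males of 12 and 26 months alone it was -0.074 (adjusted p = 0.0223), the opposite sign. Astrocyte marker sums, given above for corpus callosum, were 1660 to 2046 CPM at 3 months and 2372 to 3012 CPM at 28 months in caudate putamen, with 1 of 7 markers past the threshold. Their part in the S100a6 slopes was not tested.

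**Figure D4:**
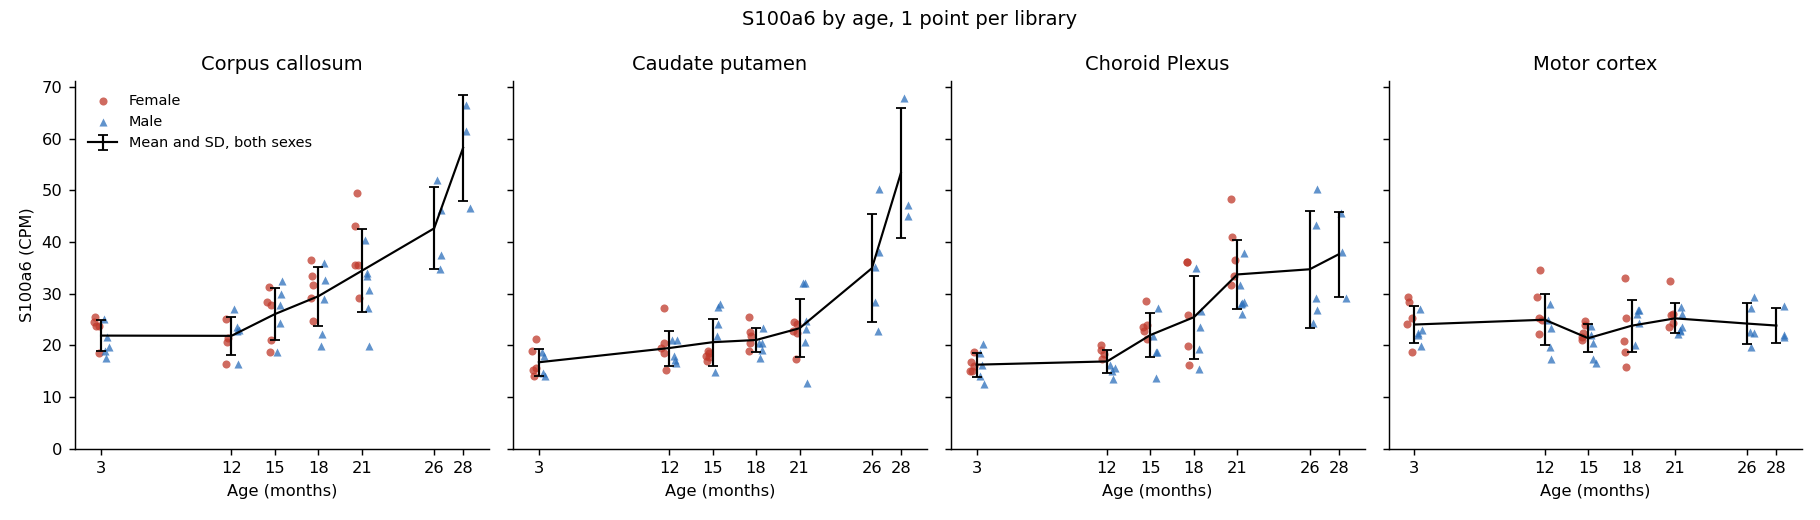
S100a6 in CPM (y axis, shared and starting at 0) against age in months in 4 regions, with 1 point per library (females as circles, males as triangles) and the mean and SD of each age. The 3 oldest mice reach 46.7 to 66.5 CPM in corpus callosum and 45.1 to 67.8 in caudate putamen, and in motor cortex the ages overlap.

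S100a16 rose in 8 of 15 regions, with smaller slopes of 0.0079 to 0.021. In corpus callosum it was 88.1, 104 and 113 CPM (lowest, median, highest, n = 10) at 3 months and 130, 138 and 169 CPM in the 3 mice of 28 months, without overlap, and the slope was 0.019 (SE 0.0028, edgeR adjusted p = 5.57e-07). In caudate putamen it was 95.2 ± 13.6 CPM (SD, n = 9) at 3 months and 154 ± 5.60 (n = 3) at 28 months, with a slope of 0.021 (SE 0.0036, edgeR adjusted p = 3.86e-05). Pons (0.017) and medulla (0.018) also rose, and these 4 calls held under every setting that gave a value, the 12- and 26-month males apart. Choroid plexus (0.018), subventricular zone (0.014), anterior hippocampus (0.0093) and thalamus (0.0079) made up the rest.

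Some of these calls were close to the threshold. Anterior hippocampus (edgeR adjusted p = 0.0436) lost its call without any 1 of mice 5, 6, 11, 12, 15, 21, 25, 36, 37, 51, 52, 57 and 59 (up to 0.12), in mice 16 to 56 (0.537) and with no filter (0.0558). Thalamus (edgeR adjusted p = 0.0479) lost it without any 1 of 39 of the 59 mice (up to 0.108), with depth as a covariate (0.0932), in males alone (0.406) and without the shallow or deviating libraries (0.0907). In choroid plexus the call was lost in males alone (0.125), and in subventricular zone in mice 16 to 56 (0.121). S100a1, a regulator of calcium cycling, rose in 5 of 15 regions: medulla (0.018, SE 0.0042, edgeR adjusted p = 0.00154), choroid plexus (0.018), pons (0.017), caudate putamen (0.012) and cerebellum (0.0100).

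In medulla S100a1 was 82.1, 96.0 and 132 CPM (lowest, median, highest, n = 10) at 3 months, 119, 132 and 201 CPM at 21 months (n = 11) and 98.3, 114 and 127 CPM in the 3 mice of 28 months, so the highest ages in the mean were 21 and 26 months. In pons the 3-month libraries ended at 108 CPM and the 28-month libraries began at 116. The caudate call ended without mouse 29 (adjusted p = 0.0585). In males alone, S100a1 lost its call in caudate putamen (adjusted p = 0.0927), choroid plexus (0.119) and medulla (0.056), and in mice 16 to 56 in caudate putamen (0.398), cerebellum (0.324) and pons (0.136). S100a13, the neighbour of S100a1 with which it shares the start region, rose in 2 regions, corpus callosum (0.013, SE 0.0035, edgeR adjusted p = 0.00562) and choroid plexus (0.015, SE 0.0045, edgeR adjusted p = 0.0153).

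In corpus callosum S100a13 was 16.4, 19.9 and 24.8 CPM (lowest, median, highest, n = 10) at 3 months and 23.0, 23.7 and 27.3 CPM in the 3 mice of 28 months, which overlapped. In males alone both S100a13 calls were lost (adjusted p = 0.0984 in corpus callosum and 0.342 in choroid plexus), and the callosal call also in mice 16 to 56 (0.216). In medulla its slope of 0.013 was just short of the threshold (edgeR adjusted p = 0.0527), and it passed with DESeq2 (0.0332), with RLE factors (0.0431) and without any 1 of 11 mice. The head-to-head pair had different sets of regions past the threshold, and the difference between their slopes was not tested.

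S100a4, expressed in immune and mesenchymal cells, had the steepest slopes at the lowest levels. In corpus callosum it was 0.213, 0.543 and 0.888 CPM (lowest, median, highest, n = 10) at 3 months and 1.79, 3.18 and 4.04 CPM in the 3 mice of 28 months, without overlap, and the slope was 0.078 (SE 0.014, edgeR adjusted p = 1.72e-05). In choroid plexus the 3-month libraries ran from 0 to 0.735 CPM and the 28-month libraries were at 1.32, 1.93 and 2.97 CPM, and the slope was 0.091 (SE 0.013, edgeR adjusted p = 2.75e-07). In pons the slope was 0.078 (SE 0.019, edgeR adjusted p = 0.00714), which did not pass with depth as a covariate (0.053, adjusted p = 0.0764). It was not past the threshold in the other 5 of 8 regions that kept it. The sum of the 4 microglial markers was 162 to 229 CPM at 3 months and 272 to 391.7 at 28 months in corpus callosum, and 150 to 194 and 224 to 258 in choroid plexus, with 3 of the 4 past the threshold in each. Of 5 fibroblast markers 0 rose in either region, and 1 fell in choroid plexus. Of 2 border macrophage markers tested, 0 rose in either region. Of 3 T cell markers, 1 passed the filter in choroid plexus and rose, and 0 passed it in corpus callosum. The part of all these markers in the S100a4 slopes was not tested. At these depths a library held a few reads of S100a4, and reads of Gm42674 cannot be separated from it.

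S100a10, the annexin A2 partner known as p11, moved in both directions. In caudate putamen it was 9.52, 13.6 and 17.8 CPM (lowest, median, highest, n = 9) at 3 months and 22.7, 28.2 and 29.3 CPM in the 3 mice of 28 months, without overlap. The slope there was 0.035 (SE 0.0055, edgeR adjusted p = 4.38e-06), and this call held under every setting that gave a value, the 12- and 26-month males apart. In corpus callosum the slope was 0.016 (SE 0.0052, edgeR adjusted p = 0.025), and the call was lost without mouse 57 (0.0519), in males alone (0.0563) and in mice 16 to 56 (0.379). In cerebellum it fell. The mean was 24.9 ± 3.60 CPM in the youngest mice (SD, n = 10), 19.5 ± 1.41 at 26 months (n = 5) and 21.6 ± 2.86 at 28 months (n = 3), with a slope of -0.0097 (SE 0.0030, edgeR adjusted p = 0.0189). The ages overlapped in cerebellum, and the fall was not called in males alone (adjusted p = 0.322) or in mice 16 to 56 (0.14).

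S100a11, a partner of annexin A1, rose in choroid plexus and motor cortex. In choroid plexus it was 7.00, 8.59 and 10.2 CPM (lowest, median, highest, n = 10) at 3 months and 10.2, 11.9 and 14.4 CPM in the 3 mice of 28 months, with a slope of 0.026 (SE 0.0056, edgeR adjusted p = 0.000767). In males alone the adjusted p was 0.065. In motor cortex S100a11 was the only one of 6 tested members to rise, with 5.41 ± 1.06 CPM at 3 months (SD, n = 10), 8.80 ± 1.26 at 26 months (n = 5) and 5.72 ± 0.883 at 28 months (n = 3). The slope there was 0.018 (SE 0.0062, edgeR adjusted p = 0.0387). The call was lost in males alone (0.0822), in mice 16 to 56 (0.235), with no filter (0.05002), and without any 1 of mice 2, 3, 8, 9, 11, 14, 17, 25, 33, 45, 48 and 49 (up to 0.0763).

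To compare a hindbrain region rich in fibre tracts with a cortical region, medulla and visual cortex went into 1 edgeR fit. The interaction of age with region gave the difference in slope. Neither region was in the contrast of corpus callosum with motor cortex described above. The members were nonetheless chosen with earlier results of these data known. Of all genes, 1.81% were steeper in medulla and 1.04% in visual cortex, and of the 8 members 2 were steeper in medulla and 0 in visual cortex. S100a1 had levels of 57.3 ± 5.85 CPM at 3 months (SD, n = 10) and 49.3 ± 2.38 at 28 months (n = 3) in visual cortex, against 99.7 ± 16.0 and 113 ± 14.2 in medulla. The difference in slope was 0.021 (SE 0.0052, edgeR adjusted p = 0.00909), and with the mouse as a block it was 0.020 (adjusted p = 0.0153). For S100a6, medulla had 12.7 ± 3.26 CPM at 3 months and 23.8 ± 9.00 at 21 months (n = 11), and visual cortex 24.2 ± 4.44 and 27.2 ± 4.84. At 28 months S100a6 averaged 18.0 CPM in medulla, where the libraries overlapped those of 3 months, and 23.9 in visual cortex. Its difference was 0.035 (SE 0.010, edgeR adjusted p = 0.032), but with the mouse as a block it was 0.033 and did not pass (adjusted p = 0.0844), nor without any 1 of mice 17, 25, 33 and 58 (up to 0.0759).

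S100b differed by 0.0077 (SE 0.0054, edgeR adjusted p = 0.537), which did not pass the threshold. In males alone neither S100a1 (adjusted p = 0.0643) nor S100a6 (0.136) passed. The astrocyte marker sum ran from 1538 to 2632 CPM at 3 months and from 2177 to 4016 at 21 months in medulla, and from 2310 to 2784 and 2307 to 2872 in visual cortex. At 28 months the sum was 1769 to 2886 CPM in medulla and 2298 to 2543 in visual cortex. Of its 7 markers, 2 rose in medulla, and 0 rose and 2 fell in visual cortex. Of 4 microglial markers, 3 rose in medulla and 1 in visual cortex. Their part in these differences was not tested.

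Females and males were set against each other up to 21 months, the last age with both, with each age as a level of its own. Of 109 pairs tested, 0 were higher in males (1.24% of all genes) and 2 in females (1.47%). S100b in corpus callosum was higher in females at each of the 5 ages (0.259% of all genes in that region were higher in females). At 3 months females were at 135 ± 11.4 CPM and males at 111 ± 15.4 (SD, n = 5 each), and at 21 months at 198 ± 25.7 (n = 5) and 165 ± 12.2 (n = 6). At 12 months the 4 females (152 to 160 CPM) lay above all 5 males (124 to 146), and at the other 4 ages the sexes overlapped. The S100b values of this region are also those whose slope with age led to the choice of these genes. This test is therefore on values seen before and gives no independent evidence. Over all 5 ages the female mean was 168 ± 26.2 CPM (n = 24) and the male mean 145 ± 23.0 (n = 26), a male minus female difference of -0.23 log2 (SE 0.037, edgeR adjusted p = 9.28e-05).

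This difference held with every alternative that used all 5 ages or mice 16 to 56, and leaving out single mice moved it between -0.25 and -0.22. With the mice of 12 months alone it was -0.19 and not past the threshold (adjusted p = 1). In motor cortex S100b had a difference of -0.088 in the same direction (SE 0.029, edgeR adjusted p = 0.0674). The S100b values of motor cortex were likewise seen before, in the contrast that led to the choice of the genes. S100a10 in olfactory bulb was the other case, with females at 51.8, 69.6 and 81.4 CPM (lowest, median, highest, n = 25) and males at 49.1, 60.7 and 72.3 CPM (n = 25), and it was higher in the female mean at all 5 ages (0.822% of all genes there were higher in females). The difference was -0.15 log2 (SE 0.040, edgeR adjusted p = 0.0318). It did not pass with depth as a covariate (0.116), in mice 16 to 56 (0.0645), or without any 1 of mice 27, 28, 41 and 46 (up to 0.0554). The slopes with age did not differ between the sexes in any of the 109 pairs at the threshold (0.0184% of all genes were steeper in males and 0.0543% in females). By edgeR 6 pairs had an unadjusted p under 0.05, the lowest adjusted p was 0.216, and DESeq2 likewise called 0.

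**Figure D5:**
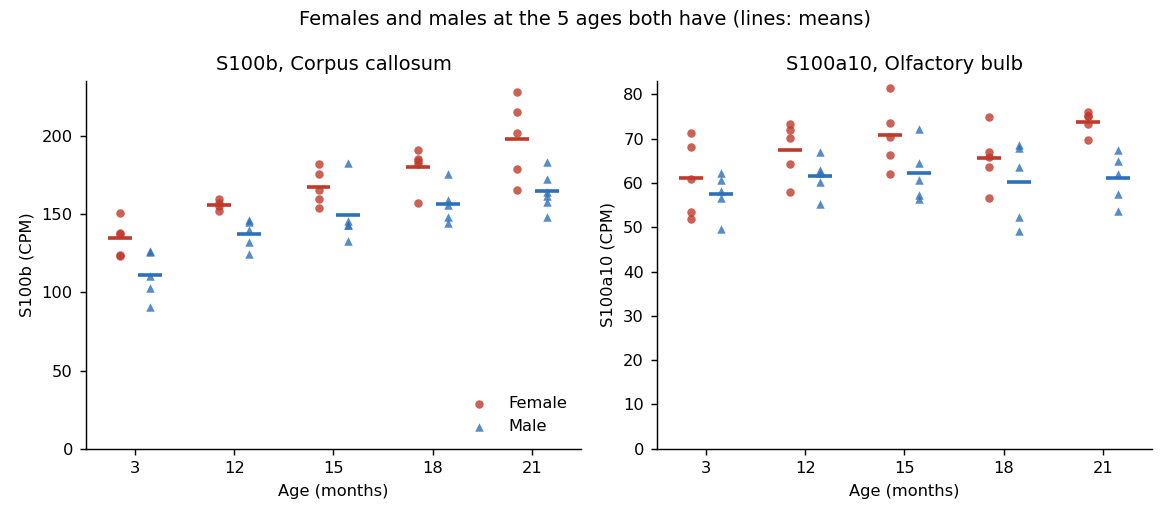
S100b in corpus callosum and S100a10 in olfactory bulb in CPM (y axes, starting at 0) at the 5 ages with both sexes (x axis, months), with 1 point per library (females as circles, males as triangles) and lines at the group means. The female mean is the higher one at each age in both panels, and the S100b ranges of the sexes are apart at 12 months only.

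Of 8 further S100 genes on a list, 4 passed the filter on low counts in at least 1 region, and their 28 tests held 8 rises and 1 fall, where 5.87% of all genes tested rose and 4.71% fell. S100a5, a marker of olfactory sensory neurons whose axons end in the bulb, averaged 192 ± 55.5 CPM in olfactory bulb (SD, n = 58), where it fell with a slope of -0.020 (SE 0.0057, edgeR adjusted p = 0.0125). It also passed the threshold in hypothalamus (0.16, SE 0.052, edgeR adjusted p = 0.0461), where its median was 0 CPM. S100a8, which with S100a9 forms calprotectin of granulocytes, averaged 39.5 CPM in olfactory bulb, 37.9 in cerebellum and 18.9 in visual cortex, but its median in those regions was 21.7, 3.39 and 3.70 CPM and its highest libraries were at 324, 1064 and 584. S100a8 rose in visual cortex (0.18, SE 0.039), motor cortex (0.13, SE 0.029), corpus callosum (0.13, SE 0.034) and hypothalamus (0.12, SE 0.036), and S100a9, with up to 19.9 CPM on average in cerebellum, rose in visual cortex, motor cortex and hypothalamus. The sum of 4 granulocyte markers (Ngp, Camp, Ltf, Mpo) reached 994 CPM in cerebellum and 700 CPM in visual cortex in single libraries, with medians of 4.32 and 3.41 CPM. All 4 rose with age in visual cortex, motor cortex and hypothalamus (median slopes of 0.21, 0.20 and 0.18), the regions in which both S100a8 and S100a9 rose, and in corpus callosum 0 of the 4 passed the filter. Their sum was near the floor in motor cortex (median 0.612 CPM, highest 19.9) and in hypothalamus (median 0.717, highest 22.5). Camp and Mpo had a median of 0 in motor cortex, and Ngp, Camp and Ltf had a median of 0 in hypothalamus. The part of the granulocyte markers in the S100a8 and S100a9 values was not tested. S100a3 averaged 1.72 CPM in caudate putamen and 1.22 in corpus callosum, while S100a7a, S100a14, S100g and S100z passed the filter in 0 regions.

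The 19 partners, receptors and targets on another list gave 270 tests, with 21 rises and 21 falls (5.87% of all genes tested rose and 4.71% fell) and a median slope of 0.00077 log2 per month. Among ligand receptors, Tlr4 rose in 5 of 15 regions, while Ager passed the filter in 1 region only and was not called there. Among annexins, which join S100 proteins to membranes, Anxa5 rose in 6 regions, Anxa2 in 4 of 15, Anxa1 in 2 of 14 and Anxa11 in 1, and Anxa6 fell in 3. The cochaperone gene Sugt1 and the calcium pump gene Atp2a2 fell in 3 regions each. Cacybp, the binding partner named after S100a6, was the gene of this list that changed in the most regions, and it fell in 11 of 15.

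Over the 15 regions its slopes lay between -0.011 and -0.0018, with the steepest in caudate putamen (-0.011, SE 0.0020, edgeR adjusted p = 4.13e-05) and cerebellum (-0.011, SE 0.0031, edgeR adjusted p = 0.00691). In corpus callosum the Cacybp slope was -0.0097 (SE 0.0024, edgeR adjusted p = 0.00248), and in choroid plexus -0.0080 (SE 0.0018, edgeR adjusted p = 0.00145), regions in which S100a6 rose. In motor cortex, where S100a6 was not called, Cacybp also fell (-0.0053, SE 0.0015, edgeR adjusted p = 0.00904). The 4 regions without a Cacybp call were entorhinal cortex, pons, subventricular zone and visual cortex.

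Over the means of all regions and ages, the genes whose log2 CPM followed that of a member most closely were taken from the 11957 other genes (11958 for S100a4) that averaged 5 CPM or more. For S100b they were Bag3 (r = 0.94), Bola3 (0.93), Fgf1 (0.93), Mad1l1 (0.92) and Slc39a13 (0.91). For S100a16 they were Lap3 (0.94), Plin3 (0.94) and Cmtm5 (0.93), and for S100a13 Plin3 (0.94), S100a16 (0.93) and Cmtm5 (0.92). For S100a1 they were S100a16, S100a13 and Plin3 (0.90 to 0.91). S100a10 was closest to Eya2 (0.87), Rpp25 (0.78) and Ptgds (0.75), and S100a11 to Aebp1 (0.84), Ccnd3 (0.76) and Tapbp (0.76). S100a4 was closest to Cd33 (0.75), Itgam (0.74) and Hpgds (0.74), and S100a6 to H2-T23 (0.72), Tspo (0.68) and Pomgnt1 (0.68). The single closest gene of S100a6 and that of S100a4 were less close than the closest gene of each other member. These are descriptions over means that share libraries, and the limit on reads of S100a1 and S100a13 given above holds here too.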

How the data were processed

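Read counts per gene in 21076 rows were used as the authors deposited them, as whole numbers that are not normalized. Per the labels' protocols, RNA from homogenised tissue was made into unstranded Smart-Seq2 and Nextera libraries. Per the submitters' processing notes, Trim Galore 0.3.7, STAR 2.5.3a, DESeq2 and the build GRCm38 were used, and the counting program and annotation are not given in the sources used here. Totals ran from 481444 to 26756735 reads. Genes with few reads are therefore measured with less precision, S100a4 above all.

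CPM were computed from the counts. Each region was fitted alone with edgeR 4.0.16 (R 4.3.3) with TMM factors, filterByExpr and the quasi-likelihood test, and p-values were Benjamini-Hochberg adjusted over all genes of the fit, with a threshold of 0.05. Age in months was tested beside sex over all ages. The sexes, and their slopes, were compared at 3 to 21 months. Medulla and visual cortex were fitted together for the age by region term, as were corpus callosum and motor cortex, for description only. The fits were tested on simulated data.

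Alternatives were RLE factors, no filter, DESeq2 1.42.0, depth covariates, males alone, subsets by mouse number, each mouse left out in turn, and mouse as a replicate block. For the pair of regions, samples of a mouse come from the same animal. Their deviations from the group means had a median correlation of 0.041 over 55 mice (from -0.216 to 0.251), above 0.1 in 19 mice. With mice left out, the factors, genes and dispersion trend of the full fit were kept. The exclusion of shallow and deviating libraries, and the 12-month comparison of the sexes, were chosen after seeing the data.

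The members, the gene lists and the markers were chosen with earlier results of these data known. Other S100 genes are named with a mean of at least 1 CPM in a region, partners with values when called in at least 8 regions in 1 direction, and genes most like a member by Pearson's r of log2 CPM (prior count 2) among genes that average 5 CPM or more, 5 for S100b and 3 for each other member. Libraries of a group come from separate mice. Motifs and promoters were read from RefSeq (GRCm38.p6) and gene models from GENCODE M21. Figures were drawn with matplotlib 3.10.9.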

Additional observations from a re-analysis of the deposited data

Results flagged for a closer look

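In caudate putamen at 12 months, the S100a6 level of mouse 1 (female) was 27.33 CPM, while the next of the 10 libraries was at 21.1 CPM. In cerebellum at 18 months, the S100a10 level of mouse 23 (male) was 33.88 CPM, while the next of the 10 libraries was at 23.02 CPM. Each stood apart by its gap to the nearest other library relative to the range of its group. Of 80 groups examined, 2 stood out in this way, and chance does so in about 1 in 20 groups.

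The slopes with age differed between medulla and visual cortex by the age by region term of the edgeR fit for S100a1, by 0.02072 log2 per month, and for S100a6, by 0.03532 log2 per month. With the mouse as a replicate block S100a1 stayed past the threshold (0.020, edgeR adjusted p = 0.0153), and S100a6 did not (0.033, edgeR adjusted p = 0.0844).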

How the results depend on the processing

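Pairs of member and region called with age numbered 38 in the main fit, 23 in males alone, 25 in mice 16 to 56 and 3 in the males of mice 1 to 15. The 3 include S100a6 in hypothalamus and in olfactory bulb, and the 25 include S100b in medulla and S100a16 in olfactory bulb. The main fit called none of these. The called pairs numbered 35 to 39 with depth covariates, DESeq2, no filter, RLE factors or without the shallow and deviating libraries, and 34 to 39 with 1 mouse left out. The 2 differences between the sexes became 1 with depth covariates, 1 in mice 16 to 56 and 1 in the 12-month mice alone (S100a6 in hypothalamus, 1.03 log2, edgeR adjusted p = 0.0279), and 1 to 3 with 1 mouse left out. Slopes that differ between the sexes numbered 0 in each setting run, also with 1 mouse left out. The 2 members that differed between medulla and visual cortex became 0 in males alone, 1 with mouse as a replicate block (S100a1), and 1 to 3 with 1 mouse left out. S100a6 in hypothalamus reversed, from 0.015 log2 per month to -0.074 in the males of mice 1 to 15 (edgeR adjusted p = 0.0223). For each of these the cause was not tested, and the subsets hold fewer mice. With TMM factors over all libraries, 6 of 8 members kept their highest region and all 120 levels moved by less than 1 SD. The members that changed were highest in medulla: S100a10 with 62.7 CPM there against 60.7 in olfactory bulb, and S100a16 with 152 against 150 in pons. Depth limits S100a4 most.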
